A study of Homo sapiens with 29 samples.

Results

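VNN1 and CD109 each encode a protein held on the outer cell surface by a glycosylphosphatidylinositol (GPI) anchor, and both were followed here in the hepatoma line HepG2, an established human cell line, cultured with or without CCL, the labels' abbreviation for the herb Cratoxylum cochinchinense Lour. They are 2 of the 14884 genes named in the array's probe table and were picked there by symbol, which gave 3 of 16098 named probe sets, 1 for VNN1 and 2 for CD109. The genes themselves were chosen for higher values with CCL at 24 h and 48 h, so every difference between the arms given for them below is a description and carries no test. Total RNA was measured on 29 Affymetrix arrays, 13 of cells treated with CCL for 6, 12, 18, 24 or 48 h and 16 of untreated cells at 0, 6, 12, 18, 24 or 48 h. The CCL arm held 3 arrays at each of 6, 12 and 18 h and 2 at each later time. The untreated arm held 2 arrays at 0 h and 18 h and 3 at every other time. Arrays are numbered as sets 1 to 3 in the labels, which do not say whether a set is a separate culture, what dose was given or whether untreated cells received a solvent. An effect of CCL and one of a solvent cannot be told apart here, the p-values rest on array-to-array spread that may be technical, and precision is limited by how few arrays each group holds.

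VNN1 encodes vanin-1, an ectoenzyme that splits pantetheine, a breakdown product of coenzyme A, into the vitamin pantothenate and the thiol cysteamine. In liver its gene is known as a target of PPARA, the nuclear receptor that responds to fatty acids. CD109 encodes a large glycoprotein of the alpha-2-macroglobulin and complement family that binds TGF-beta and, in keratinocytes, acts as a co-receptor that dampens TGF-beta signalling. GPI anchors are built in the endoplasmic reticulum, transferred to the end of a finished protein by a transamidase, and hold it in the outer leaflet of the membrane without a transmembrane segment.

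VNN1 lies on chromosome 6 at 132680849 to 132714055 and CD109 on the same chromosome at 73679192 to 73828313 in GRCh38.p14. Both genes are protein-coding. The VNN1 probe set is 17023707, the brighter CD109 probe set is 17010354 and the dimmer one is 17020838. Values are log2 expression per probe set as deposited, and since array medians ran from 2.29 to 3.39, values after quantile normalization of all 29 arrays together are given beside those that they change.

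The upstream sequence of CD109 is shown because this member was above log2 5 on every array of both arms. These are the 250 bases before the CD109 start site in the RefSeq promoter table, at chr6:73695953-73696202 of GRCh38.p14, plus strand. The window lies within the CD109 span given above, which reaches further upstream. Capitals mark the letters CACCC on either strand.

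CD109 upstream: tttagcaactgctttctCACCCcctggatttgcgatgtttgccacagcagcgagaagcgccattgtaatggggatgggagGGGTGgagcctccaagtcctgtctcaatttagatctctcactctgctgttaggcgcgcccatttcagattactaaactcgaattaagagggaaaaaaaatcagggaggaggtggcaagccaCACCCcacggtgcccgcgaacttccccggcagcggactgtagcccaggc

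The letters CACCC occurred at 3 places in this window, the first at position -233 from the start site. They occurred at least once in 54.7% of the 35116 promoter windows of the same length. GC content was 54.4%, against a median of 58% over all windows. Searched on both strands, the window held no match to TATAAA (10.7% of all windows), to the AP-1 letters TGANTCA (6.57%), to the STAT letters TTCNNNGAA (6.57%) or to the SMAD letters CAGAC (38%). It also held none to CCAAT (32%), to the SP1 letters GGGCGG (42.6%), to the antioxidant response letters TGACNNNGC (10.9%), to the NF-kB core motif, by name alone (0.179%), to the PPAR letters AGGTCA (12.1%) or to the E-box CACGTG (6.34%). A match or its lack is a description of these letters. No VNN1 sequence is shown.

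VNN1 had a higher mean in CCL-treated than in untreated cells at every time. In untreated cells at 0 h it lay at 4.04 and 3.62 (log2, sets 1 and 3). At 6 h it lay at 5.38, 4.74 and 4.07 in CCL-treated cells (sets 1, 2 and 3), against 4.67, 4.05 and 3.62 in untreated cells. The arms overlapped at 6 h, since CCL set 3 lay below untreated set 1 and level with untreated set 2. The 6 h difference depended on single arrays, at 0.29 without CCL set 1 and 0.95 without CCL set 3, in the model given below. At 12 h VNN1 lay at 5.52, 5.81 and 4.26 in CCL-treated cells and at 4.01, 3.84 and 3.8 in untreated cells, so the arms no longer overlapped, although CCL set 3 exceeded the highest untreated array only narrowly.

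From 18 h the VNN1 arms were far apart. At 18 h it lay at 6.73, 6.19 and 5.69 in CCL-treated cells (sets 1, 2 and 3), against 2.86 and 3.64 in untreated cells (sets 1 and 3). At 24 h it lay at 6.05 and 6.53 in CCL-treated cells (sets 1 and 2), against 2.58, 2.85 and 4.21 in untreated cells (sets 1, 2 and 3). At 48 h it lay at 6.94 and 5.95 in CCL-treated cells, against 3.31, 3.25 and 4.53 in untreated cells. At each of these times the lowest CCL array was above the highest untreated one, and untreated set 3 was the highest untreated array. Every CCL array lay above every untreated array for 32.5% of the 6529 genes tested at 18 h, for 13.9% at 24 h and for 10.3% at 48 h, as well as for 6.23% at 6 h and 11.8% at 12 h.

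**Figure D1:**
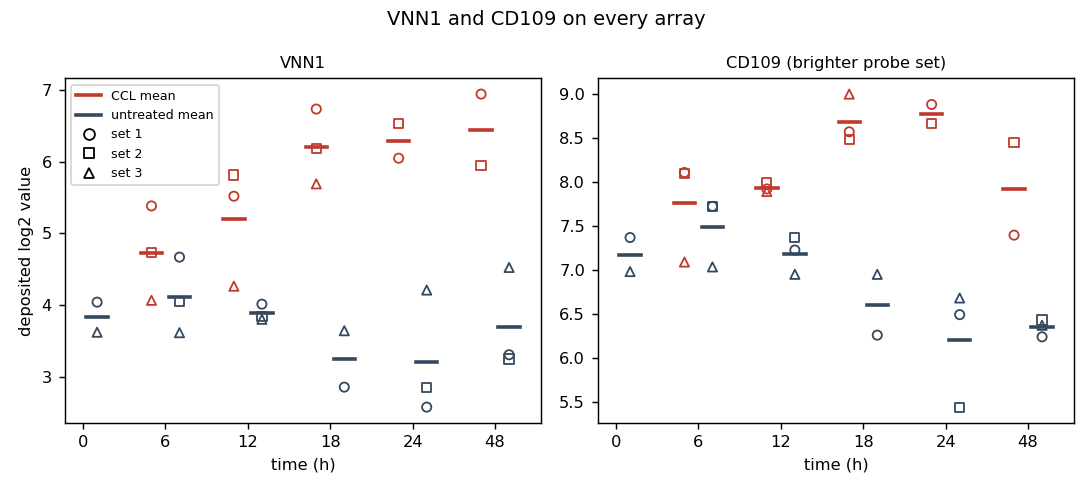
Deposited log2 values (vertical axis) of VNN1 and of the brighter CD109 probe set on all 29 arrays by time in hours (horizontal axis), with CCL in red at the left and untreated cells in dark blue at the right of each time, symbols for the sets and bars for group means. VNN1 means lie between 6.20 and 6.44 with CCL from 18 h on, against 3.21 to 3.69 without, while CD109 means in untreated cells lie at 7.50 at 6 h and 6.21 at 24 h.

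In the linear model over all arrays, VNN1 differed between CCL-treated and untreated cells by a log2 difference of 0.62 ± 0.45 at 6 h and 1.31 ± 0.45 at 12 h (SE, 3 arrays per arm). The difference was 2.95 ± 0.50 at 18 h, 3.08 ± 0.50 at 24 h and 2.75 ± 0.50 at 48 h. On the linear scale these last 3 differences are 7.74-fold, 8.43-fold and 6.73-fold. The VNN1 difference was thus already in place at 18 h, although the gene was chosen for 24 h and 48 h. At 18 h the median of all tested genes was itself 0.41 higher with CCL, and after quantile normalization VNN1 differed by 2.46 at 18 h, 3.16 at 24 h and 3.02 at 48 h.

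Ranked by log2 difference among the 6529 genes tested, VNN1 stood at place 164 at 6 h, 41 at 12 h, 10 at 18 h, 5 at 24 h and 3 at 48 h. VNN1 exceeded log2 5 on 10 of 13 CCL arrays and on 0 of 16 untreated arrays, so it passed the filter on low values only through the arm in which it is high. It had to differ to be ranked at all. Deposited values come without detection calls, and whether the untreated level lies above background is therefore not known.

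CD109 was well above log2 5 on all 29 arrays, and the arms diverged from both sides. In untreated cells at 0 h it lay at 7.37 and 6.99 (sets 1 and 3). At 6 h it lay at 8.11, 8.10 and 7.09 in CCL-treated cells (sets 1, 2 and 3), against 7.73, 7.73 and 7.04 in untreated cells. Set 3 was the low array in both arms at 6 h, and the arms overlapped. At 12 h CD109 lay at 7.93, 8.0 and 7.90 in CCL-treated cells and at 7.23, 7.37 and 6.95 in untreated cells, with no overlap and the CCL arrays within 0.11 of each other. Of all tested genes, 11.8% had every CCL array above every untreated array at 12 h.

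At 18 h CD109 lay at 8.58, 8.49 and 9.0 in CCL-treated cells (sets 1, 2 and 3), against 6.26 and 6.95 in untreated cells (sets 1 and 3). At 24 h it lay at 8.89 and 8.67 in CCL-treated cells (sets 1 and 2), against 6.5, 5.44 and 6.68 in untreated cells. The arms did not overlap at either time, and untreated 24 h set 2 was the lowest of all arrays. Of all tested genes, 32.5% at 18 h and 13.9% at 24 h also had every CCL array above every untreated array. At 48 h CD109 lay at 7.40 and 8.45 in CCL-treated cells (sets 1 and 2), against 6.24, 6.43 and 6.37 in untreated cells. The CCL arrays at 48 h differed by more than 1 log2 unit from each other, while the untreated ones lay close together.

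The log2 difference of CD109 between CCL-treated and untreated cells was 0.27 ± 0.31 at 6 h, 0.76 ± 0.31 at 12 h and 2.08 ± 0.35 at 18 h (SE). It was 2.57 ± 0.35 at 24 h, which is 5.94-fold, and 1.58 ± 0.35 at 48 h, which is 2.98-fold. Without CCL 48 h set 1 the 48 h difference was 2.10, and without CCL 48 h set 2 it was 1.05. After quantile normalization CD109 differed by 1.70 at 18 h, 2.51 at 24 h and 1.83 at 48 h. Its rank among the 6529 genes was 653 at 6 h, 171 at 12 h, 37 at 18 h, 10 at 24 h and 31 at 48 h.

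**Figure D2:**
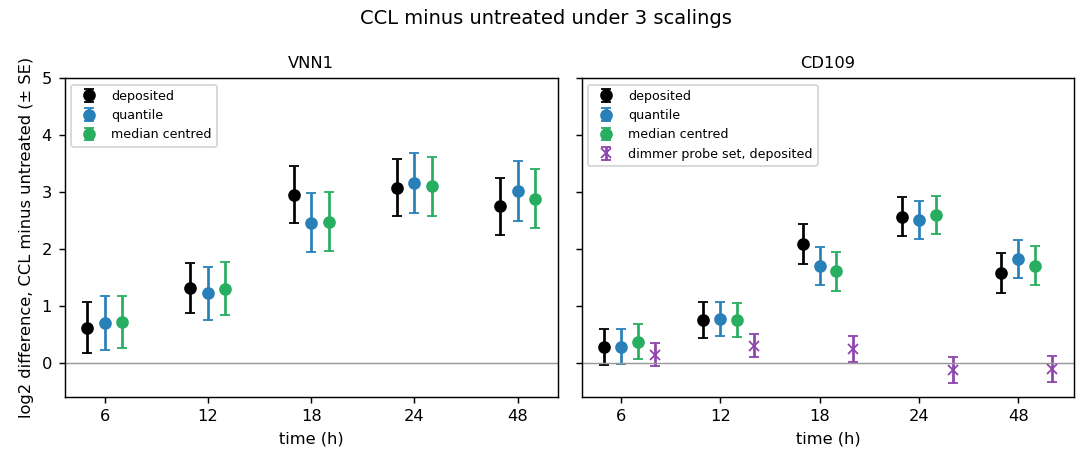
Log2 difference of CCL-treated minus untreated cells (vertical axis, ± SE of the model) by time in hours for VNN1 and CD109, from the deposited values, after quantile normalization, after centring array medians and, for CD109, from the dimmer probe set. Scaling moves the 18 h differences most, VNN1 from 2.95 to 2.46 and CD109 from 2.08 to 1.61, and the dimmer CD109 probe set stays between -0.13 and 0.30.

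The dimmer CD109 probe set did not follow the brighter one. It lay between 2.30 and 3.48 on CCL arrays and between 2.25 and 3.49 on untreated arrays, within the range of values around the array medians. Its log2 difference was 0.14 ± 0.20 at 6 h, 0.30 ± 0.20 at 12 h and 0.24 ± 0.23 at 18 h. At 24 h it was -0.13 ± 0.23 and at 48 h -0.11 ± 0.23. The probe table ties the dimmer set to transcript NM_001159587 and the brighter one to NM_133493, and which exons either set covers was not analysed here.

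Both arms were also set against untreated cells at 0 h. VNN1 in CCL-treated cells was above the 0 h level by 0.90 ± 0.50 at 6 h, 1.37 ± 0.50 at 12 h, 2.37 ± 0.50 at 18 h, 2.46 ± 0.55 at 24 h and 2.61 ± 0.55 at 48 h (log2, SE). After quantile normalization these differences were 1.05, 1.88, 2.38, 2.70 and 2.97. In untreated cells VNN1 differed from 0 h by -0.62 ± 0.50 at 24 h and -0.14 ± 0.50 at 48 h. CD109 in CCL-treated cells stood above the 0 h level by 1.51 ± 0.35 at 18 h, 1.60 ± 0.38 at 24 h and 0.75 ± 0.38 at 48 h. In untreated cells CD109 differed from 0 h by -0.97 ± 0.35 at 24 h and -0.83 ± 0.35 at 48 h, so that at 48 h the lower untreated level made up about as much of the difference between arms as the higher CCL level did. These contrasts share the 0 h arrays, and those of 24 h and 48 h also share arrays with the choice of the genes, so they are not tested.

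**Figure D3:**
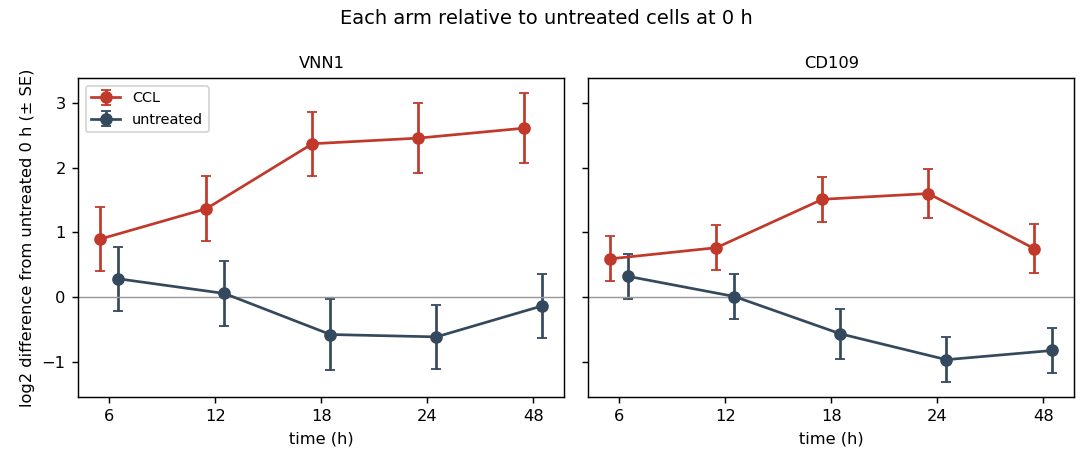
Log2 difference from untreated cells at 0 h (vertical axis, ± SE of the model, 2 arrays at 0 h) by time in hours in CCL-treated (red) and untreated (dark blue) cells. VNN1 with CCL stands at 2.37 to 2.61 from 18 h on, and untreated CD109 stands at -0.97 at 24 h and -0.83 at 48 h.

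The early untreated arrays were not part of the choice, and for CD109 they were tested with limma, with Benjamini-Hochberg adjustment over the 6529 genes. CD109 was not called, that is, it had no adjusted p under 0.05. In untreated cells CD109 differed from 0 h by 0.32 ± 0.35 (adjusted p = 1), 0.01 ± 0.35 (adjusted p = 0.998) and -0.57 ± 0.38 (adjusted p = 0.571) at 6, 12 and 18 h. VNN1 differed by 0.28 ± 0.50, 0.05 ± 0.50 and -0.58 ± 0.55 at these times. The 12 h values depended on the scaling. After quantile normalization VNN1 differed by 0.35, 0.66 and -0.09 at 6, 12 and 18 h, and CD109 by 0.30, 0.18 and -0.28. With centred array medians the 12 h differences were 0.56 for VNN1 and 0.51 for CD109. No test is given for VNN1, since it entered the tested genes only through its CCL arrays. Across all genes, limma called 0% of genes at 6 h (0 genes, 46 at an unadjusted p under 0.05), 0.23% at 12 h (15 genes, 799 unadjusted) and 0% at 18 h (0 genes, 694 unadjusted). Fitting the compared arrays alone called 0 genes at 6 h, 407 at 12 h and 0 at 18 h.

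All 12 pairs of arrays with the same set number and time gave a higher value with CCL for VNN1 and for CD109. This count is a description only, since the pairs at 24 h and 48 h are among the arrays for which the genes were chosen. Whether set numbers pair arrays is not established, and the share of all genes higher in every pair is not given here. For VNN1 the within-set log2 difference ran from 0.45 (6 h set 3) to 3.88 (18 h set 1), and at 18 h it was 3.88 in set 1 against 2.05 in set 3. At 12 h it was 1.5, 1.97 and 0.46 in sets 1, 2 and 3. For CD109 it ran from 0.06 (6 h set 3) to 3.23 (24 h set 2), and at 48 h it was 1.16 in set 1 and 2.02 in set 2. Set 3, in which VNN1 differed least at 6, 12 and 18 h, has no CCL array at 24 h or 48 h, so sets and times cannot be told apart fully there.

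Ordered by group mean, VNN1 was highest in CCL-treated cells at 48 h (6.44 ± 0.70, SD, n = 2), then at 24 h (6.29 ± 0.34, n = 2), 18 h (6.20 ± 0.52, n = 3), 12 h (5.2 ± 0.82, n = 3) and 6 h (4.73 ± 0.66, n = 3). The 6 untreated groups followed, led by 6 h (4.11 ± 0.53, n = 3) and ending with 18 h (3.25 ± 0.56, n = 2) and 24 h (3.21 ± 0.87, n = 3). All 10 pairs of neighbours in this order overlapped in their arrays. CD109 was highest in CCL-treated cells at 24 h (8.78 ± 0.15, n = 2) and 18 h (8.69 ± 0.28, n = 3), followed by 12 h (7.94 ± 0.05, n = 3), 48 h (7.93 ± 0.74, n = 2) and 6 h (7.77 ± 0.58, n = 3). Untreated cells again followed, from 6 h (7.50 ± 0.40, n = 3) down to 48 h (6.35 ± 0.10, n = 3) and 24 h (6.21 ± 0.67, n = 3). Of the 10 neighbouring pairs for CD109, 8 overlapped, the exceptions being CCL 18 h with CCL 12 h and untreated 0 h with untreated 18 h.

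Across the 11 group means after quantile normalization, VNN1 and CD109 correlated with Pearson's r = 0.915. Both were chosen for a late rise with CCL, so a high r was in part built in by the choice. Over the untreated groups alone r was 0.789. Across all 11 group means CD109 ranked 136 among the genes most like VNN1, and VNN1 ranked 41 for CD109. The genes most like VNN1 by this measure were LCK (r = 0.985), encoding a SRC family kinase best known from T cells, TMEM147 (0.984), encoding a protein of the endoplasmic reticulum, RGCC (0.984), a regulator of cell cycle, MASP1 (0.981), a serine protease of the lectin complement pathway, and PDLIM7 (0.975), an actin-associated PDZ and LIM protein. The genes most opposed were FZD4 (-0.985), encoding a WNT receptor, and SFXN2 (-0.982), of the mitochondrial sideroflexins. Most like CD109 were STX3 (0.970), a membrane fusion protein of the apical surface, MAP1B (0.967), a microtubule-associated protein, KIF13A (0.967), a kinesin motor, EMP3 (0.954), a membrane protein, and ACOT9 (0.951), a mitochondrial acyl-CoA thioesterase. Most opposed to CD109 were DTX4 (-0.974), of the deltex ubiquitin ligases, and DCAKD (-0.962). The 11 points share their arrays, and the genes were picked as the extremes of 6529, so these values describe the pattern only. Which genes come first depended on the scaling. On deposited group means RGCC ranked 2 and PDLIM7 ranked 4 for VNN1, while LCK ranked 30 (r = 0.951), MASP1 51 (0.939) and TMEM147 95 (0.921). For CD109, STX3 ranked 1, EMP3 ranked 4 and MAP1B ranked 6, while KIF13A ranked 52 (0.905) and ACOT9 ranked 87 (0.887).

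The differences that follow are from the deposited values. RGCC differed between CCL-treated and untreated cells by a log2 difference of 2.07 ± 0.56 at 18 h, 1.95 ± 0.56 at 24 h and 1.74 ± 0.56 at 48 h. LCK differed by 1.45 ± 0.23, 1.05 ± 0.23 and 1.1 ± 0.23 at these times. STX3 differed by 1.69 ± 0.23 at 18 h, 1.70 ± 0.23 at 24 h and 1.12 ± 0.23 at 48 h. Of the 5 genes most like CD109, only EMP3, at 1.81 ± 0.30, had a difference above that of CD109 at 48 h (1.58 ± 0.35).

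**Figure D4:**
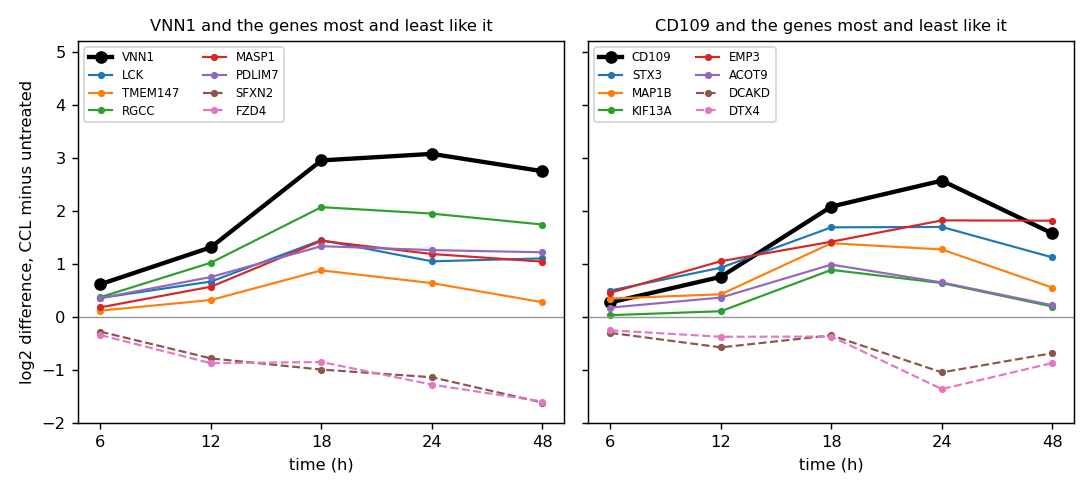
Log2 difference of CCL-treated minus untreated cells (vertical axis) by time in hours for VNN1 and CD109 (black) and for the 5 genes most like each (solid) and the 2 most opposed to each (dashed) across 11 group means. VNN1 reaches 3.08 at 24 h, against 1.95 for RGCC, and CD109 reaches 2.57, against 1.82 for EMP3.

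The nearest relatives gave smaller differences. VNN2, which encodes another GPI-anchored vanin and lies at 132743870 to 132763455 on chromosome 6, was between 1.69 and 2.41 on CCL arrays and between 1.45 and 2.34 on untreated arrays. It never passed log2 5, and its log2 difference was 0.0022 ± 0.16 at 24 h and -0.25 ± 0.16 at 48 h. Of the alpha-2-macroglobulin and complement family, 5 of 8 relatives of CD109 were tested and limma called 0 of them at 24 h and 0 at 48 h (0 at either time at an unadjusted p under 0.05, and 0 after quantile normalization). A2M, the circulating protease inhibitor that names the family, differed by 0.18 ± 0.27 at 24 h and -0.21 ± 0.27 at 48 h. Complement C3 differed by 0.23 ± 0.21 and 0.10 ± 0.21, and C5 by 0.45 ± 0.40 and -0.76 ± 0.40. C4A and C4B, near-identical copies whose probes may not tell them apart, differed by 0.50 ± 0.29 and 0.45 ± 0.29 at 24 h. A2ML1 and PZP stayed below log2 5 on every array.

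Genomic neighbours were compared next. On either side of VNN1 the nearest named protein-coding genes, the trace amine receptor genes TAAR5, TAAR2 and TAAR1 and the genes VNN2, EYA4 and TCF21, had no array above 3.95. Around CD109, MTO1, which acts in mitochondrial tRNA modification, differed by 0.37 at 24 h (adjusted p = 0.677), and TMEM30A, which encodes a flippase subunit, by -0.38 at 48 h (adjusted p = 0.352). COX7A2, of cytochrome c oxidase, differed by 0.47 at 24 h (adjusted p = 0.448). EEF1A1, a translation factor gene with many processed copies, differed by 0.62 at 24 h (adjusted p = 0.294), and none of the 4 was called by limma at any time. CGAS and FILIP1 lay below the filter.

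Few other genes of GPI-anchored proteins were measurable in these cells, and limma called none of them at the times for which VNN1 and CD109 were chosen. Of 87 such genes listed, 64 had a named probe set and 13 were tested, of which 0 were called at 24 h and 0 at 48 h (1 and 3 at an unadjusted p under 0.05, all lower). The median log2 difference of the 13 was -0.01 at 24 h and 0.03 at 48 h, against 0.04 and -0.26 for all tested genes. The largest differences were those of ART4, which carries the Dombrock blood group, at -1.09 ± 0.51 at 24 h and -1.13 ± 0.51 at 48 h, and of the glypican gene GPC6 at -1.06 ± 0.45 at 48 h, none of them called. After quantile normalization 0 were called at 24 h and 2 at 48 h, both higher, EFNA2 (0.70, adjusted p = 0.0419), which encodes an ephrin, and the glypican gene GPC1 (0.64, adjusted p = 0.0496), both named after their values were seen. For the making of the anchor itself, 1 of 20 listed genes was tested, DPM3, a subunit of dolichol-phosphate mannose synthase (-0.57 ± 0.33 at 24 h, adjusted p = 0.457).

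Of the genes for transfer and remodelling of the anchor, 11 of 16 were tested, and limma called 0 at 24 h (0 at an unadjusted p under 0.05) and 1 lower at 48 h. The gene called was GPLD1, which encodes a phospholipase that cleaves GPI anchors, at -1.24 ± 0.35 (adjusted p = 0.0359). GPLD1 reached at most 4.87 on CCL arrays, so it passed the filter on low values only through untreated arrays. With no filter on low values the adjusted p of limma for GPLD1 was 0.0691. Without CCL 48 h set 1 it differed by -0.23 (adjusted p = 1), and without untreated 48 h set 1, 2 or 3 the adjusted p was 0.0717, 0.119 and 0.0749. Among all genes, limma called 2.54% higher and 0.475% lower at 24 h, and 1.33% higher and 5.22% lower at 48 h. These are 166 higher and 31 lower of the genes called at 24 h, and 87 higher and 341 lower of the genes called at 48 h, and after quantile normalization the splits were 296 higher and 154 lower, and 338 higher and 472 lower.

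Genes around the VNN1 reaction were mostly not called. Of 20 genes of coenzyme A synthesis and breakdown, 14 were tested and limma called 0 at 24 h and 0 at 48 h (1 and 2 at an unadjusted p under 0.05, and 0 after quantile normalization). Among them the thioesterase gene ACOT1 differed by -1.26 ± 0.44 at 48 h (adjusted p = 0.0776) and PANK4, of the pantothenate kinase family, by 0.60 ± 0.29 at 24 h (adjusted p = 0.35). ACOT1 reached at most 4.18 on CCL arrays, so it passed the filter on low values only through untreated arrays. Of 20 genes of cysteamine, taurine and glutathione metabolism, 9 were tested, with 0 called by limma at either time (0 at an unadjusted p under 0.05, and 0 after quantile normalization). The largest differences there were 0.67 ± 0.33 at 24 h for the aminopeptidase gene ANPEP and 0.57 ± 0.30 at 48 h for GGT5, a gamma-glutamyltransferase relative.

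Of 26 genes of PPARA, its partners and its targets besides VNN1, 7 were tested, of which limma called 1 higher at 24 h and 0 at 48 h (2 and 1 at an unadjusted p under 0.05). The gene that rose at 24 h was PLIN2, encoding a lipid droplet coat protein, at a time when limma called 2.54% of all tested genes higher. PLIN2 lay at 7.98 and 6.19 in CCL-treated cells (sets 1 and 2), against 5.40, 4.75 and 5.25 in untreated cells. It differed by 1.96 ± 0.50 (adjusted p = 0.0277), and by 0.51 ± 0.50 at 48 h. PLIN2 was already called by limma at 18 h, at 2.55 ± 0.50 (adjusted p = 0.0019), and at 2.12 after quantile normalization (adjusted p = 0.0122). As deposited, 18 h was also the time with the most genes called among all tested genes. Without untreated 18 h set 1 PLIN2 differed by 2.09 at 18 h, and that call was lost. With no filter on low values the 24 h adjusted p of PLIN2 was 0.0563. Without CCL 24 h set 1, the high array, it differed by 1.06 (adjusted p = 0.871), and without untreated 24 h set 1 or set 2 the adjusted p was 0.0507 and 0.116.

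Around CD109, genes of the TGF-beta system were called in part. This list and the others here were drawn up with earlier results of these data known. Their counts beside the share of all genes are therefore a description and no test of enrichment. Among all tested genes limma called 2.54% higher at 24 h and 1.33% higher at 48 h. Of 32 listed ligand, receptor and inhibitor genes 13 were tested, with 3 called higher at 24 h and 2 at 48 h, and 0 lower by limma. After quantile normalization 3 were called higher at 24 h and 4 at 48 h, where SMURF1 (0.50, adjusted p = 0.0353) and SMURF2 (0.65, adjusted p = 0.0483), its close relative, were added. SMURF2 was named after its values were seen. Their median log2 difference was 0.46 at 24 h and -0.16 at 48 h, against 0.04 and -0.26 for all tested genes. ENG, which encodes the TGF-beta co-receptor endoglin, lay at 5.93 and 5.36 in CCL-treated cells at 24 h (sets 1 and 2), against 4.60, 4.30 and 4.37 in untreated cells. At 48 h ENG lay at 7.0 and 5.96 in CCL-treated cells, against 4.91, 4.76 and 4.50 in untreated cells. ENG differed by 1.22 ± 0.33 at 24 h (adjusted p = 0.0419) and 1.76 ± 0.33 at 48 h (adjusted p = 0.00454). Among untreated arrays only 0 h set 1 (5.07) exceeded log2 5, so ENG passed the filter on low values only through its CCL arrays. Its calls after that filter are therefore not read as tests, although the counts above include ENG at both times. With no filter on low values the adjusted p of limma for ENG was 0.0752 at 24 h and 0.0102 at 48 h. The 48 h call was lost without CCL 48 h set 1 (1.24, adjusted p = 0.543), and the 24 h call without CCL 24 h set 1 (0.684) or untreated 24 h set 1, 2 or 3 (0.0654, 0.128 and 0.0646). The ubiquitin ligase gene SMURF1, which acts on TGF-beta receptors, rose by 0.99 ± 0.21 at 24 h (adjusted p = 0.00826), a call lost without CCL 24 h set 1 (0.0752) or set 2 (0.0532). The other gene called, at both times, was GDF15, a distant TGF-beta relative, by 2.46 ± 0.31 at 24 h and 2.20 ± 0.31 at 48 h, and the 48 h call was lost without CCL 48 h set 1 (adjusted p = 0.0568).

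Of 19 TGF-beta target genes 9 were tested, with 2 called higher at 24 h, SNAI2 and JAG1, and 1 at 48 h, JAG1. The shares of all tested genes called higher were 2.54% at 24 h and 1.33% at 48 h. SNAI2, encoding a repressor of epithelial genes, rose by 2.16 ± 0.36 at 24 h, and JAG1, encoding a Notch ligand, by 1.76 ± 0.29 at 24 h and 1.32 ± 0.29 at 48 h. The 48 h call of JAG1 was lost without CCL 48 h set 1 (adjusted p = 0.769) or untreated 48 h set 2 (adjusted p = 0.0597). After quantile normalization SNAI2 was also called at 48 h (1.38, adjusted p = 0.00802), against 1.09 ± 0.36 (adjusted p = 0.0659) as deposited. SNAI2 reached at most 4.72 on untreated arrays, so it passed the filter on low values only through its CCL arrays. Its calls at 24 h and 48 h are therefore not read as tests, although the count above includes the 24 h call. With no filter its adjusted p at 24 h was 0.00213 (limma). The median of the 9 was 0.35 at 24 h and -0.08 at 48 h.

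Genes of EGF receptor signalling, with which CD109 is known to associate in tumour cells, were called at 18 h and 24 h. At 18 h the receptor gene EGFR differed by 1.22 ± 0.40 (adjusted p = 0.0463, limma) and the ligand gene EREG by 3.06 ± 0.52 (adjusted p = 0.000504). The median of all tested genes was itself 0.41 higher with CCL at 18 h. As deposited, more of all tested genes were called at 18 h than at any other time, as counted in the last section. After quantile normalization the 18 h adjusted p was 0.215 for EGFR and 0.00122 for EREG (limma). In untreated cells at 18 h EGFR lay at 5.56 and 6.75 and EREG at 1.96 and 3.97 (sets 1 and 3). Both 18 h calls were lost without untreated 18 h set 1. Of 12 listed genes 4 were tested, and limma called 2 higher at 24 h and 0 at 48 h (1 at an unadjusted p under 0.05, and 1 after quantile normalization). The shares of all tested genes called higher were 2.54% at 24 h and 1.33% at 48 h. EGFR lay at 7.92 and 6.94 in CCL-treated cells at 24 h (sets 1 and 2), against 5.63, 5.41 and 6.68 in untreated cells, and differed by 1.52 ± 0.40 (adjusted p = 0.0331). The call was lost without CCL 24 h set 1 (1.04, adjusted p = 0.74) or untreated 24 h set 1 or 2 (0.115 and 0.159). EREG, encoding the ligand epiregulin, lay at 5.91 and 6.62 in CCL-treated cells, against 3.08, 3.77 and 5.11 in untreated cells, and differed by 2.28 ± 0.52 (adjusted p = 0.0137). Its call was lost without CCL 24 h set 1 or 2 (0.0783 and 0.0785) or untreated 24 h set 1 or 2 (0.08 and 0.0615).

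Of 31 genes of the gp130 cytokines, their receptors and STAT3 targets, 19 were tested, with 4 called higher and 1 lower at each of 24 h and 48 h, and 4 higher and 2 lower at each time after quantile normalization. As deposited, limma called 2.54% of all tested genes higher and 0.475% lower at 24 h, and 1.33% higher and 5.22% lower at 48 h. Since this list too was drawn up with earlier results known, its counts are a description. IL6R, encoding the interleukin-6 receptor, lay at 7.36 and 7.84 in CCL-treated cells at 24 h (sets 1 and 2), against 6.03, 5.19 and 6.51 in untreated cells. IL6R rose by 1.69 ± 0.26 at 24 h (adjusted p = 0.000495) and 1.30 ± 0.26 at 48 h (adjusted p = 0.00685), the 48 h call being lost without CCL 48 h set 1 (adjusted p = 0.294). The cytokine genes IL11 and LIF rose by 4.17 ± 0.39 and 2.60 ± 0.41 at 24 h and by 2.71 ± 0.39 and 1.87 ± 0.41 at 48 h. The kinase gene PIM1 rose by 1.74 ± 0.40 at 24 h and 1.78 ± 0.40 at 48 h. Without CCL 24 h set 1 the 24 h calls of LIF (adjusted p = 0.0752) and PIM1 (0.232) were lost, and PIM1 also without untreated 24 h set 1 (0.0797) or 2 (0.0728). Without CCL 48 h set 1 the 48 h calls of LIF (0.856) and PIM1 (0.733) were lost, as they were without untreated 48 h set 2 (0.0601 and 0.0523).

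The lower genes of that list, named after their values were seen, were FGG, of fibrinogen, at 24 h (-1.44 ± 0.32, adjusted p = 0.0126) and the kinase gene TYK2 at 48 h (-0.82 ± 0.25, adjusted p = 0.0472). After quantile normalization FGA, also of fibrinogen and named in the same way, was called lower at 24 h (-1.02, adjusted p = 0.0235) and at 48 h (-0.87, adjusted p = 0.0394). As deposited, FGA differed by -0.99 ± 0.33 (adjusted p = 0.11) and -0.90 ± 0.33 (adjusted p = 0.0884). The call of FGG was lost without CCL 24 h set 1 (0.74) or untreated 24 h set 2 (0.0663). That of TYK2 was lost without CCL 48 h set 1 (1) or any of untreated 48 h sets 1 to 3 (0.079, 0.146 and 0.106).

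Markers of the cell type were present in both arms. All 13 hepatocyte markers with a named probe set, of 17 listed, were above log2 5 on every array, and their summed log2 values ran from 127.7 to 131.4 in CCL-treated cells and from 125.5 to 134.5 in untreated cells. Of these, limma called 0 at 24 h (3 at an unadjusted p under 0.05, and 2, TTR and FOXA2, lower after quantile normalization) and 1 lower at 48 h, TTR, encoding transthyretin (-1.12 ± 0.31, adjusted p = 0.0341). Among all tested genes limma called 5.22% lower at 48 h. The TTR call was lost without CCL 48 h set 1 (0.843) or untreated 48 h set 1, 2 or 3 (0.0772, 0.107 and 0.0743). Of 7 named leukocyte markers, 2 were tested, LYZ and LCP1, and limma called 0 at 24 h (0 at an unadjusted p under 0.05) and 0 at 48 h (1, LCP1, at an unadjusted p under 0.05, also called after quantile normalization). Of the 7, 1 was above log2 5 on every array, LYZ, at 10.25 to 10.95 in CCL-treated and 10.38 to 10.85 in untreated cells. LCP1 differed by 0.47 ± 0.36 at 24 h and 0.90 ± 0.36 at 48 h. It exceeded log2 5 only on CCL 18 h set 3 (5.34) and CCL 48 h set 1 (5.30). LCP1 thus passed the filter on low values only through CCL arrays, and its p-value and call are not read as a test. The summed log2 values of the 7 ran from 26.5 to 32.9 in CCL-treated cells and from 25.3 to 30.6 in untreated cells, and none of the 6 named endothelial and fibroblast markers was tested, their sums running from 13.2 to 19.1 and from 12.9 to 16.5. In RNA from whole cultures, fewer cells with a transcript and less transcript per cell cannot be told apart, and the part of other cell types in the VNN1 and CD109 differences was not tested.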

How the data were processed

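Total RNA of HepG2 cells was measured on 29 Affymetrix arrays. The authors deposited log2 expression values for 53617 probe sets. The submitters' processing notes name RMA and Affymetrix Expression Console 1.1. Array medians differ, and which arrays RMA was run on together is not given in the sources used here. No detection calls were used, and depth does not apply. Of the probe sets, 16098 had 1 symbol in the platform annotation and 37519 had none. The probe set with the highest mean stood for each of 14884 genes, and testing took in 6529 genes, those with 2 or more arrays over log2 5.

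A model with 1 mean for each of 11 groups covered all arrays (lmFit and eBayes of limma 3.58.1, R 4.3.3), with two-sided p-values and the Benjamini-Hochberg adjustment across those genes. The same model over all 53617 probe sets gave the values of the dimmer CD109 probe set, VNN2 and the genomic neighbours, whose adjusted p-values are those over the 6529 genes. The model was tested on simulated data. Genes named beside the members follow a fixed rule: the members of both families, at most 4 called genes per list at 24 h or 48 h (the 2 largest differences where none was called), the 5 genes most like and the 2 most unlike each member, and the 3 nearest named genes on each side. Members, lists and rule were chosen with earlier results of these data known. Alternatives were quantile normalization, centred medians, set as a block, other filters, the compared arrays alone and each array left out. Sequences are from RefSeq, GRCh38.p14.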

Additional observations from a re-analysis of the deposited data

How the results depend on the processing

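The CCL differences of VNN1 and of the brighter CD109 probe set stayed positive under every alternative run at every time. Leaving out 1 array gave 2.25 to 3.25 for VNN1 at 48 h and 1.05 to 2.10 for CD109 at 48 h, and centred array medians gave 1.61 for CD109 at 18 h. The dimmer CD109 probe set gave 0.297 at 12 h and 0.235 at 18 h, and a negative difference at 24 h (-0.127) and 48 h (-0.106). The cause was not tested. In untreated cells at 12 h against 0 h, leaving out an array gave -0.156 to 0.263 for VNN1 and -0.187 to 0.20 for CD109, and set as a block gave -0.0157 for CD109. For the same contrast quantile normalization gave 0.66 for VNN1 and 0.18 for CD109, and centred medians gave 0.56 and 0.51.

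Counts depended strongly on the model. They are the genes called at 6 h, genes called at 12 h, genes called at 18 h, genes called at 24 h and genes called at 48 h, in that order, and were 20, 81, 815, 197 and 428. After quantile normalization they were 85, 146, 338, 450 and 810. Centred medians gave 81, 134, 219 and 319 at 6 to 24 h. With no filter the counts were 1542 at 18 h and 210 at 48 h. The compared arrays alone gave 88, 660, 58, 45 and 0, and at 48 h only 5 arrays then estimate the spread. Leaving out 1 array gave 6 to 18 at 6 h, 28 to 47 at 12 h, 24 (without untreated set 1) to 2647 (without untreated set 3) at 18 h, 20 (without CCL set 1) to 383 (without CCL set 2) at 24 h, and 8 (without CCL set 1) to 2106 (without CCL set 2) at 48 h. Whether set numbers pair arrays is not established: residuals of same-numbered arrays correlated above 0.1 in 9 of 12 pairs (-0.0657 to 0.444), and the own number correlated best in 7 of 12. With set as a fixed replicate block the counts were 108, 257, 1571, 525 and 903.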
